A study of Mus musculus with 32 samples.

Results

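The Igf2-H19 imprinted domain of mouse chromosome 7 and its neighbours were examined as 8 genes: H19, Igf2, Mrpl23, Tnnt3, Lsp1, Tnni2, Syt8 and Ctsd. The genes were taken by their place at this CTCF-insulated domain and looked up by symbol in 5 tables of authors' normalised counts, which together list 17440 genes. Of the 8, 2 genes (Mrpl23 and Ctsd) were listed in every table and 2 (Tnnt3 and Syt8) in none. H19 and Igf2 were listed in 2 tables, and Lsp1 and Tnni2 in 1. The list was chosen by results already known from the CTCF degradation table, in which the normalised counts of Mrpl23 fall, so values of the members in that table are given as a description without a test.

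The RNA came from E14 mouse embryonic stem cells, a line that grows from the early embryo and keeps the ability to form all its tissues. CTCF AID cells carry CTCF fused to an auxin-inducible degron, so that the protein is destroyed once an auxin is added, and were untreated or given 500 uM indole-3-acetic acid (IAA) for 12 or 24 h. RAD21 AID cells carry the same kind of tag on a cohesin subunit and were untreated or given 1 uM 5-Ph-IAA for 12 or 24 h. Each further library also had the CTCF AID genotype. They were a pair of groups labelled as a serum condition with or without 12 h of IAA, 6 overexpression groups (a control, wild-type CTCF and mutated CTCF, each without and with IAA), and a pair with a control hairpin or a hairpin against Chd4, the remodelling ATPase of the NuRD complex, without IAA according to the labels. IAA was given at 500 uM for 12 h to the treated serum, control and mutated CTCF groups. For wild-type CTCF with IAA no time is given. The labels name neither the mutation nor the clones, and the growth protocol gives a serum-free medium with LIF and 2 kinase inhibitors for every sample, those labelled serum included. For 4 libraries title and treatment label disagree: mutated CTCF without IAA by title is labelled as treated, and wild-type CTCF with IAA by title is labelled as untreated. Titles were followed. Each group had 2 libraries, not stated to be separate cultures, so p-values measure only the spread between these libraries.

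Library totals of the normalised counts lay between 15364584 and 19642332. All 8 embryonic stem cell markers checked, Pou5f1, Sox2 and Nanog among them, were listed in every table. Chd4 itself lay in the range 9526 to 9923 in control hairpin libraries and 3379 to 3729 in Chd4 hairpin libraries. Without IAA, Ctcf lay between 4134 and 4332 in overexpression controls and between 9275 and 9712 with an added gene. With IAA these ranges were 5098 to 5185 and 11077 to 11758. The degron acts on protein, which was not measured here. These are bulk samples, so fewer cells that express a gene and less RNA per cell cannot be told apart.

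As background, Igf2 encodes an insulin-like growth factor of fetal growth that is normally made from the paternal chromosome, and H19 is a non-coding RNA that is normally made from the maternal one and carries miR-675 in an exon. Both draw on shared enhancers that lie beyond H19, towards Mrpl23. CTCF binds the unmethylated control region between the genes on the maternal copy and keeps the enhancers from Igf2, whereas methylation of the paternal copy prevents that binding and silences H19. Allele-specific expression was not measured here.

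On GRCm38, the build that the submitters' processing notes call mm10, the genes lie on chromosome 7 in this order. Ctsd (142375911 to 142388038, minus strand) is followed by Syt8 (142434850 to 142440396, plus), Tnni2 (142441808 to 142444410, plus), Lsp1 (142460809 to 142494867, plus), Tnnt3 (142498836 to 142516009, plus), Mrpl23 (142532686 to 142540747, plus), H19 (142575529 to 142578143, minus) and Igf2 (142650766 to 142666816, minus). The Mrpl23 gene ends 34.8 kb from H19 and Igf2 begins 72.6 kb to its other side. Ctsd, at 187.5 kb, is the farthest member. Exons of Igf2 overlap Igf2os on the opposite strand and Gm49394 on the same strand, and exons of Ctsd overlap Gm49369 on the same strand. Strand use in counting is not given in the sources used here, so these values are uncertain to that extent.

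The promoters of the members listed in all tables are shown because these genes could be followed through every treatment. Sequences are those of RefSeq on GRCm38.p6, from 250 bases before to 50 bases after the start of the transcript. The Mrpl23 promoter is chr7:142532782-142533081 on the plus strand, with GC boxes (GGGCGG, both strands searched) in capitals. The Ctsd promoter is chr7:142387778-142388077 on the minus strand, with the palindrome CACGTG in capitals, the core of the element shared by many lysosomal genes.
Mrpl23: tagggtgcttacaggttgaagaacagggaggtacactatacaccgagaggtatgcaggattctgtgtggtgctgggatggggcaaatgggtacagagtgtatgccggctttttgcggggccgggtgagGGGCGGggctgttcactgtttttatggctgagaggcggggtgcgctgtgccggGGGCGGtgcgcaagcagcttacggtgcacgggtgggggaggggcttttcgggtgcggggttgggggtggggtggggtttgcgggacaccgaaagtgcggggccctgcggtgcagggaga
Ctsd: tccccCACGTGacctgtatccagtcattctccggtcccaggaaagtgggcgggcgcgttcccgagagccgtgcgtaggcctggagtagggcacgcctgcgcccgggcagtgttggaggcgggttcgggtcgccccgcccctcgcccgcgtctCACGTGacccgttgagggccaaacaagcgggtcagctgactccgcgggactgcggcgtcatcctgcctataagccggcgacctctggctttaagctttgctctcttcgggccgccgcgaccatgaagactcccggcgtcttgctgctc
The 2 GC boxes of the Mrpl23 promoter begin at -122 and -69 from the start, and 35.7% of 32851 promoters of this length hold at least 1. The Ctsd promoter also holds 2 GC boxes, which are not in capitals above. The 2 CACGTG matches of the Ctsd promoter begin at -245 and -98, and 7.15% of promoters hold one. A short core of the CTCF motif, searched on both strands, matched neither promoter and is found in 11.1% of all promoters. GC content was 63.3% for Mrpl23 and 67.3% for Ctsd against a median of 52.7%. These are matches of letters within 300 bases and say nothing of binding.

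Mrpl23, which encodes a protein of the large subunit of the mitochondrial ribosome, was lower in every group given IAA than in its untreated counterpart, in all 3 tables with CTCF degradation. Both untreated libraries of the CTCF degradation table stood at 159 normalised counts. At 12 h of IAA the libraries stood at 9.84 and 34.8, and at 24 h at 0 and 7.67. The groups did not overlap, and the 12 h mean was 14.1% and the 24 h mean 2.42% of the untreated mean. On the log2(value + 1) scale, used for all differences here, Mrpl23 differed by -3.02 at 12 h and by -5.76 at 24 h. Ranked from the lowest of 13699 genes, the 12 h difference was at place 35 and the 24 h difference at place 1. For comparison, 5.08% of genes at 12 h and 5.8% at 24 h were at least 2-fold lower, which is a background and not a test of Mrpl23. At these low levels single libraries weighed heavily: without the first 12 h library the difference was -2.16 and without the second -3.88, and at 24 h it was -4.20 and -7.32.

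**Figure D1:**
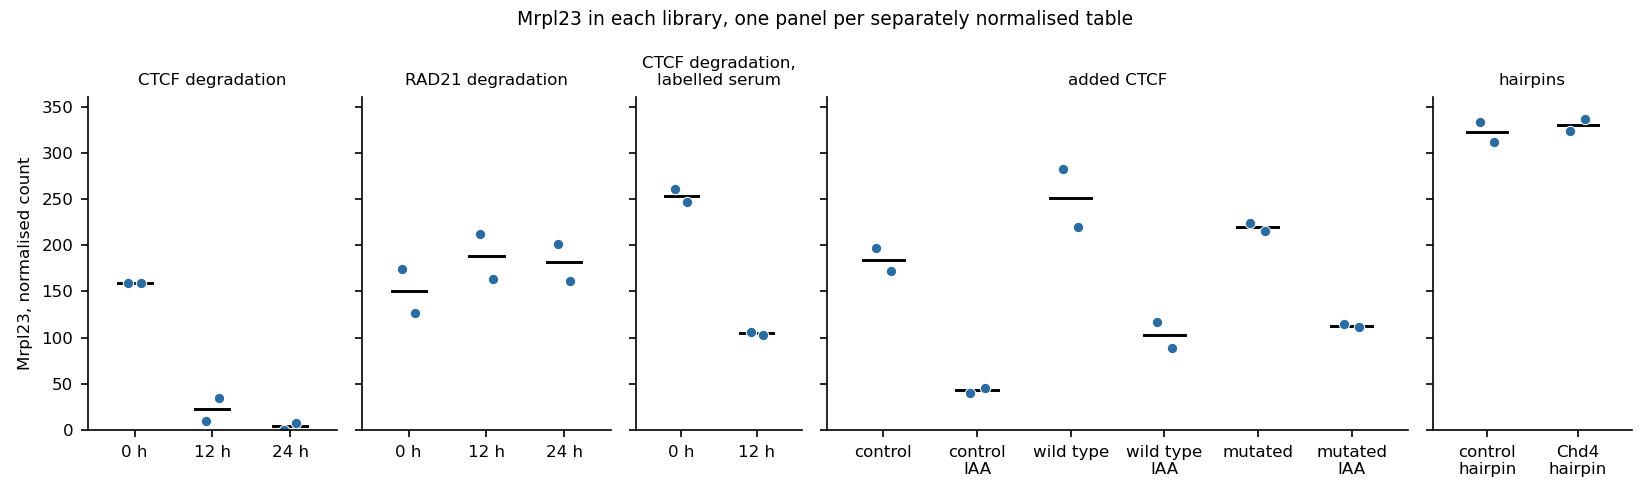
Normalised counts of Mrpl23 (vertical axis) in each library (points) and their group means (bars), with one panel for each table and 2 libraries per group. Every group given IAA sits below its untreated group in the CTCF degradation, serum and overexpression panels, while RAD21 groups overlap and both hairpin groups lie between 311 and 337.

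Mrpl23 was named for its fall in the CTCF degradation table, and the other tables were tested with limma, with Benjamini-Hochberg adjustment over all genes of a table. The members were chosen with earlier results of these data known, so these tests are not free of that choice. In the libraries labelled serum, Mrpl23 stood at 247 and 260 without IAA and at 103 and 107 after 12 h. The treated libraries were lower without overlap, a log2 difference of -1.27 (SE 0.12, 95% interval -1.55 to -0.98, limma adjusted p 0.000685, n = 2 per group). It was the only one of 4 listed members called, where 17% of 14494 genes were called in either direction and 1.44% were called and at least 2-fold lower. An exact permutation test of 2 libraries against 2 cannot go below p = 0.333, so these calls rest on the spread that limma shares across genes.

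In the overexpression table the control libraries stood at 172 and 197 without IAA and at 40.1 and 45.6 with IAA. This fall to 23.2% of the untreated mean was a log2 difference of -2.08 (SE 0.18, 95% interval -2.47 to -1.69, limma adjusted p 1.46e-05, n = 2), at place 78 from the lowest of 13938 genes. Of all genes, 25.3% were called and 2.1% were called and at least 2-fold lower. Grouping libraries by their treatment label in place of their title left the difference as it was and took the adjusted p to 0.0574.

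Summed markers of several cell types also differed with IAA where Mrpl23 fell, though not in the same way in each table. In overexpression controls the 3 of 5 neural markers that were listed summed to 2191 to 2259.9 without and 3575 to 3694 with IAA, and Pax6 and Neurog2 were not listed. The 5 of 9 endoderm markers listed summed to 48.2 to 68.9 and to 126 to 130, without Sox17, Sox7, Afp and Ttr, and the 2 of 9 muscle markers listed to 534 to 571 and to 866 to 1072. All 8 stem cell markers together stood at 97749 to 99543 without and 100760 to 101231 with IAA. The 3 of 5 trophoblast markers listed, without Gata3 and Elf5, summed to 1275 to 1350 without and 1699 to 1745 with IAA. In the CTCF degradation table these trophoblast markers fell from 1279 to 1294 at 0 h to 1144 to 1189 at 24 h. In the libraries labelled serum the stem cell sum was 62396 to 62782 without and 54414 to 55646 with IAA, and the sum of the 3 of 4 mesoderm markers listed, without Mesp1, was 65.1 to 91.9 and 169 to 171. In overexpression controls the same mesoderm sum moved the other way, from 202 to 216 without to 161 to 167 with IAA. So did the muscle sum in serum (4 of 9 listed), at 1115 to 1141 without and 826 to 856 with IAA. The neural sum there (4 of 5 listed) was 2460 to 2484 and 2503 to 2509, and the endoderm sum (5 of 9 listed) 277 to 291 and 326 to 396. Other sums in the CTCF degradation table follow for 0, 12 and 24 h. Stem cell markers stood at 82401 to 83000, 85485 to 85538 and 83344 to 83655. Muscle (2 of 9 listed) stood at 695 to 741, 798 to 817 and 700 to 718. Neural (3 of 5) stood at 1922 to 1978, 2479 to 2568 and 1996 to 2244. Mesoderm (3 of 4) stood at 135 to 147, 151 to 189 and 215 to 234. Endoderm (3 of 9) stood at 76.1 to 78.4, 68.5 to 94.4 and 85.1 to 93.6. The part of these cell type markers in the fall of Mrpl23 was not tested.

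Where CTCF was added, Mrpl23 also fell with IAA. With wild-type CTCF the libraries stood at 219 and 282 without IAA and at 89.2 and 117 with IAA, a log2 difference of -1.28 (95% interval -1.67 to -0.88, limma adjusted p 0.000627). With mutated CTCF they stood at 216 and 224 without and at 112 and 114 with IAA, a log2 difference of -0.95 (95% interval -1.34 to -0.56, limma adjusted p 0.00418). Neither pair of groups overlapped, and 21.4% and 16.2% of genes were called in these comparisons. The log2 differences were 61.3% and 45.8% as large as that in control cells.

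Whether the fall was smaller with an added gene was tested as an interaction. The difference between the IAA effects was 0.81 for wild-type CTCF (SE 0.25, 95% interval 0.25 to 1.36, limma adjusted p 0.209) and 1.13 for mutated CTCF (SE 0.25, 95% interval 0.57 to 1.68, limma adjusted p 0.0562). Neither was called, in comparisons that called 1.41% and 1.64% of genes. With only genes of a mean of at least 100 tested, the adjusted p of the interaction with mutated CTCF was 0.0487.

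Levels with IAA were compared between added genes and the control, a comparison chosen after the values were seen. Mrpl23 was higher with wild-type CTCF by 1.24 (limma adjusted p 0.00181) and with mutated CTCF by 1.38 (limma adjusted p 0.000877), and both share the 2 treated control libraries. Background calls were 6.26% and 6.5% of genes. With IAA, the libraries with mutated CTCF overlapped those with wild-type CTCF. Their log2 difference was 0.14 (95% interval -0.25 to 0.53, limma adjusted p 0.769), where 2.25% of genes were called. Without IAA the levels with wild-type CTCF lay above those of the control without a call (log2 difference 0.43, limma adjusted p 0.349), as did those with mutated CTCF (0.26, limma adjusted p 0.463).

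No call was made for Mrpl23 in RAD21 AID cells. Its libraries stood at 127 and 174 at 0 h, at 164 and 212 at 12 h and at 161 and 202 at 24 h of 5-Ph-IAA. All 3 groups overlapped. The differences from 0 h were 0.32 at 12 h (95% interval -0.19 to 0.84, limma adjusted p 0.364) and 0.28 at 24 h (95% interval -0.24 to 0.80, limma adjusted p 0.442). The lower bounds, -0.19 and -0.24, limit the fall that these libraries leave room for. With the Chd4 hairpin Mrpl23 stood at 324 and 337 against 311 and 333, a difference of 0.04 (95% interval -0.20 to 0.28, limma adjusted p 0.769).

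A processed pseudogene, Mrpl23-ps1 (chromosome 2, 74591330 to 74591909, minus strand), matched the 692-base transcript Mrpl23-201 in 540 of 540 aligned bases, so reads of the gene and the pseudogene can be split between them. Mrpl23-ps1 stood at 13.4 in both untreated libraries of the CTCF degradation table and at 0 and 7.71 after 12 h. In serum it stood at 20.3 and 21.2 without IAA and at 2.62 and 9.09 with IAA. With both summed, an alternative added after the values were seen, the Mrpl23 difference was -2.75 at 12 h, -5.31 at 24 h and -1.31 in serum. In RAD21 AID cells the pseudogene stood at 24.8 and 51.4 at 24 h against 8.03 and 10.1 at 0 h, and with the hairpins at 5.59 and 5.85 in controls and at 16.5 and 29.1 with Chd4 reduced. With the hairpins it reached the mean of 10 needed for a test only through the group where it was high, so those values carry no test. In RAD21 AID cells its difference between 24 and 0 h was not called (limma adjusted p 0.0685).

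**Figure D2:**
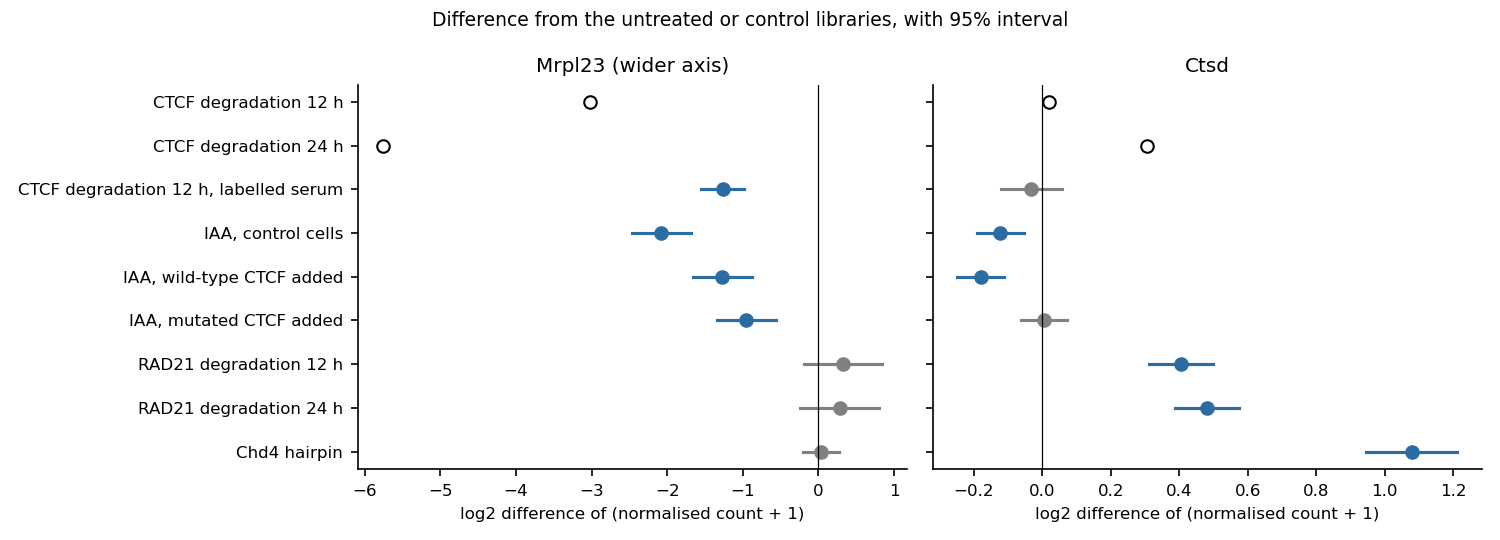
Log2 differences (horizontal axis) of Mrpl23 and Ctsd from the untreated or control libraries for 9 comparisons, with 95% intervals from limma. Filled blue points were called, grey points were not, and open points from the CTCF degradation table have no test. Mrpl23 lies below 0 in every comparison with CTCF degradation, and Ctsd is highest with the Chd4 hairpin at 1.08.

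H19 and Igf2, the imprinted pair, were listed in the serum and hairpin tables. The tables list only genes that reach a certain level, since the highest value of a listed gene was never below 5.42 to 8.58, depending on the table. In the serum table H19 stood at 39.3 and 48.5 without IAA and at 24.3 and 47.4 after 12 h. The groups overlapped, with a log2 difference of -0.35 (95% interval -1.15 to 0.45, limma adjusted p 0.525). Leaving out the lower treated library turned the sign, to 0.12.

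Igf2 stood at 678 and 690 without IAA in the serum table and at 717 and 747 with IAA. The treated libraries were both higher, by 0.10 on the log2 scale (95% interval -0.05 to 0.24, limma adjusted p 0.342), and the difference was not called. The upper bound of the interval corresponds to 118% of the untreated level on this scale. Per kilobase of annotated exon, which counts every exon of every annotated transcript, the mean of Igf2 was 120 and that of H19 was 17.8 ± 2.62 (SD, n = 2) without IAA. Igf2os, the antisense neighbour that shares exonic sequence with Igf2, stood at 7.80 and 20.5 without and at 11.1 and 15.2 with IAA.

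H19 rose with the Chd4 hairpin, and Igf2 was higher in both Chd4 hairpin libraries than in both controls. H19 stood at 15.3 and 15.7 in control hairpin libraries and at 93.9 and 97.3 in Chd4 hairpin libraries, a log2 difference of 2.55 (SE 0.24, 95% interval 1.97 to 3.13, limma adjusted p 0.000128, n = 2). Igf2 stood at 0.626 and 8.69 in control hairpin libraries and at 64.3 and 67.2 in Chd4 hairpin libraries. Igf2 reached the mean of 10 needed for a test only through the Chd4 hairpin libraries and so had to differ, and its log2 difference of 4.07 is a description without a test. For both genes the groups were far apart, but the Igf2 controls differed widely among themselves. Leaving out a control library moved the Igf2 difference to 5.36 or 2.78. Per kilobase of annotated exon H19 stood at 38.9 ± 0.989 and Igf2 at 11.5 ± 0.356 (SD, n = 2) with the Chd4 hairpin. H19 was also above Igf2 in control hairpin libraries, at 6.31 against 0.814, whereas Igf2 was above H19 in the serum table.

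**Figure D3:**
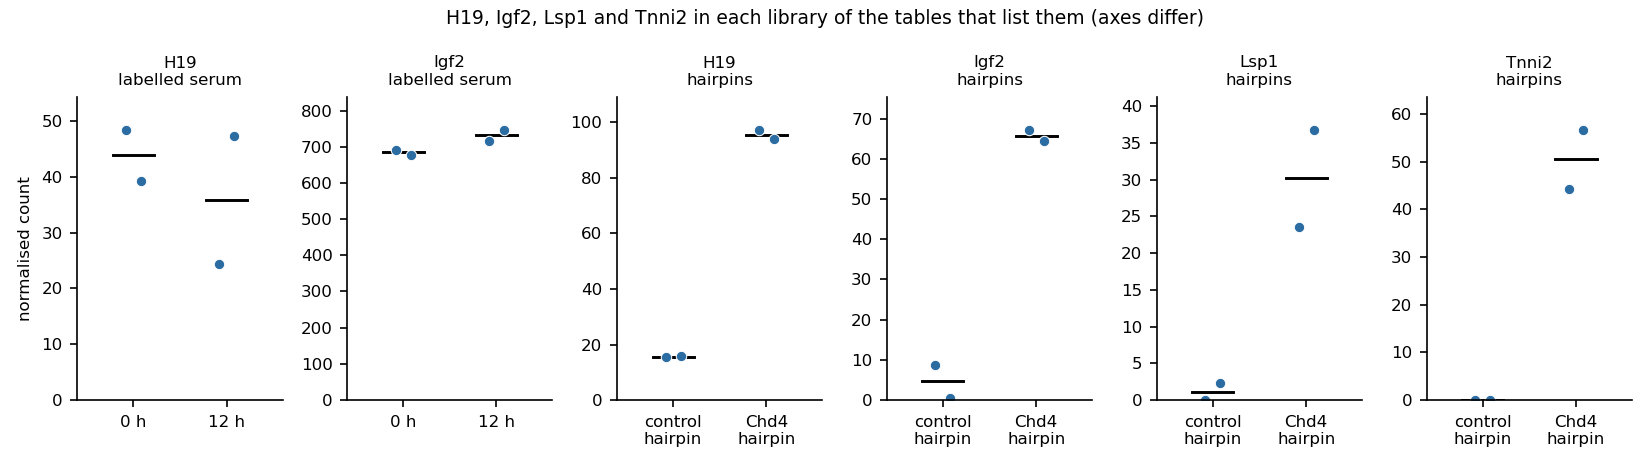
Normalised counts (vertical axes, each from 0 and of its own range) of H19, Igf2, Lsp1 and Tnni2 in each library (points) of the tables that list them, with group means (bars) and 2 libraries per group. H19 overlaps between 0 and 12 h in the serum table, and all 4 genes are higher in both Chd4 hairpin libraries than in both control hairpin libraries.

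Lsp1 and Tnni2 were listed in the hairpin table alone. Lsp1, an actin-binding protein of white blood cells, stood at 0 and 2.32 in control hairpin libraries and at 23.6 and 36.8 in Chd4 hairpin libraries. Its log2 difference was 4.06, between 3.20 and 4.93 with a control library left out and 2.51 with 5 in place of 1 added before logs. Tnni2, the fast skeletal muscle form of troponin I, was listed at 0 in both control libraries and at 44.3 and 56.7 with the Chd4 hairpin. Both genes reached the mean of 10 only through the Chd4 hairpin libraries, so no test is given for them. No fold is given for Tnni2, since its size would depend on the value added before taking logs. Tnnt3, the fast skeletal muscle troponin T that lies between Lsp1 and Mrpl23, and Syt8, a synaptotagmin beside Tnni2, have no value in any table.

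Of the 6 listed members, 5 were called higher with the Chd4 hairpin, where 67.4% of 15499 genes were called, 33.5% higher, and 17.5% both called and at least 2-fold higher. Since Igf2, Lsp1 and Tnni2 are among the 5 and had to differ there, this count supports nothing. Markers of other cell types moved with the Chd4 hairpin as well. The summed level of 8 embryonic stem cell markers was 88084 to 88899 with the control and 64406 to 64862 with the Chd4 hairpin, and that of 9 primitive and visceral endoderm markers, 7 of them listed, was 102 to 119 and 976 to 1000. Of 9 skeletal muscle markers 4 were listed, with a sum of 327 in both controls and of 490 to 558 with the Chd4 hairpin, and Myod1, Myf5, Actc1, Myl1 and Acta1 were not listed. Of 4 blood markers 2 were listed, with a sum of 14.4 to 19.8 and of 82.5 to 101, and Ptprc and Lyz2 were not. The 3 of 5 trophoblast markers listed, without Cdx2 and Elf5, summed to 1575 to 1678 with the control and 953 to 981 with the Chd4 hairpin, and the 4 of 5 neural markers listed, without Neurog2, to 2499 to 2547 and 4043 to 4089.5. The part of these cell type markers in the rises of the members was not tested.

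Ctsd encodes cathepsin D, an aspartic protease of the lysosome, and was the most abundant member in every table that lists it, also per kilobase of exon. With the Chd4 hairpin it rose from 4512 and 4541 to 9094 and 10050.0, a log2 difference of 1.08 (SE 0.06, 95% interval 0.95 to 1.21, limma adjusted p 1.05e-05, n = 2). In RAD21 AID cells it rose from 4600 and 4941 to 6268 and 6362 at 12 h (log2 difference 0.41, SE 0.04, limma adjusted p 0.00207) and to 6580.0 and 6723 at 24 h (0.48, SE 0.04, limma adjusted p 0.000951). These groups did not overlap with 0 h, while 13% and 13.7% of genes were called. Without the mean trend in limma both calls ended (adjusted p 0.0606 and 0.0558). Between 12 and 24 h Ctsd was not called (limma adjusted p 0.246), in a comparison that called 15.9% of genes.

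Differences of Ctsd after CTCF degradation were small. In the CTCF degradation table it stood at 3503 and 3660 at 0 h, at 3576 and 3693 at 12 h and at 4363 and 4495 at 24 h, log2 differences of 0.02 and 0.31 given without a test. The 24 h libraries lay above all others. In serum it stood at 2465 and 2538 without and at 2414 and 2480.0 with IAA, with overlap (log2 difference -0.03, 95% interval -0.12 to 0.06, limma adjusted p 0.612).

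In overexpression controls Ctsd fell from 4751 and 4766 to 4293 and 4456 with IAA, by 0.12 on the log2 scale (95% interval -0.19 to -0.05, limma adjusted p 0.0147). With wild-type CTCF it fell from 4454 and 4562 to 3971 and 3992 (log2 difference -0.18, limma adjusted p 0.00219). With mutated CTCF the groups overlapped, at 4227 and 4264 without and 4225 and 4303 with IAA (log2 difference 0.01, limma adjusted p 0.918). The interactions, -0.06 and 0.13, were not called (limma adjusted p 0.681 and 0.241), so a difference in the IAA effect between added genes and the control was not shown. Without IAA Ctsd was lower with mutated CTCF than in the control (log2 difference -0.16, limma adjusted p 0.0119), where 5.55% of genes were called. With wild-type CTCF and no IAA it was not called (-0.08, limma adjusted p 0.328), where 0.897% were. With IAA, Ctsd was lower with wild-type CTCF than in the control (-0.14, limma adjusted p 0.0258), a call that ended without the second treated control library (adjusted p 0.171) or without either library with wild-type CTCF (0.136 and 0.111). It was not called with mutated CTCF and IAA (-0.04, limma adjusted p 0.570). These differences were small, and both calls against control libraries without IAA depended on single libraries. The adjusted p of the fall with IAA in control cells (limma) reached 0.107 without the first treated control library, 0.063 without the second untreated one and 0.0522 without the first untreated one. That of the lower level with mutated CTCF lay between 0.0558 and 0.0713 when any of the 4 libraries was left out.

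Other genes near H19 were looked at for company. Within 500 kb the annotation holds 49 further genes, of which 11 were listed in at least 1 table and 4 to 7 were tested per comparison. Cd81, a tetraspanin 474596 bases from H19, was the only one of them called in more than one comparison with CTCF degradation. It fell in serum, from 1382 and 1474 to 994 and 1045 (log2 difference -0.49, limma adjusted p 0.00169), and in overexpression controls, from 3997 and 4049 to 2765 and 2771 (-0.54, limma adjusted p 3.69e-06). It also fell with wild-type CTCF (-0.34, limma adjusted p 0.000172) and with mutated CTCF (-0.41, limma adjusted p 6.49e-05). In the CTCF degradation table it stood at 2660 and 2736 at 0 h, at 2501 and 2518 at 12 h and at 2632 and 2690 at 24 h, without a call. R74862, a non-coding transcript on the opposite strand that overlaps the span of Cd81, fell in overexpression controls, from 44.2 and 57.5 to 18.3 and 29.2 (-1.09, limma adjusted p 0.0190).

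Degradation of RAD21 raised Cd81, from 2925 and 2958 to 3315 and 3449 at 12 h and to 3868 and 3990 at 24 h (log2 differences 0.20 and 0.42, limma adjusted p 0.0213 and 0.00138). With the Chd4 hairpin it stood at 3876 and 3957 against 3647 and 3864, without a call. Within 500 kb Tssc4 rose there, from 321 and 340.3 to 498 and 529 (log2 difference 0.63, limma adjusted p 0.000892). Tspan32, a tetraspanin, stood at 4.17 and 10.7 with the control and at 54.3 and 56.3 with the Chd4 hairpin. Dusp8, a phosphatase of MAP kinases, stood at 5.90 and 11.2 and at 34.9 and 51.9, and Gm49369, whose exons overlap Ctsd, at 5.53 and 7.13 and at 25.7 and 42.4. These 3 genes were tested only because they were high with the Chd4 hairpin, so no test of them is given. Th, tyrosine hydroxylase, was listed at 0 in both control libraries and at 16.2 and 17.1 with the Chd4 hairpin, under the mean needed for the test.

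Over the wider window of 2000000 bases, 78 of 184 further genes were listed. With IAA in overexpression controls 23 of 58 tested were called (39.7%, against 25.3% of all genes), 12 higher and 11 lower. In serum 9 of 64 were called (14.1%, against 17%), and with the Chd4 hairpin 49 of 68 (72.1%, against 67.4%). The 49 include Tspan32, Dusp8 and Gm49369, which were tested only because they were high there, so that count supports nothing. After 24 h of RAD21 degradation 10 of 55 were called (18.2%, against 13.7%). In both comparisons with CTCF degradation drawn in the plot of differences by distance, Mrpl23 had the lowest log2 difference of all tested genes within 2000000 bases.

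**Figure D4:**
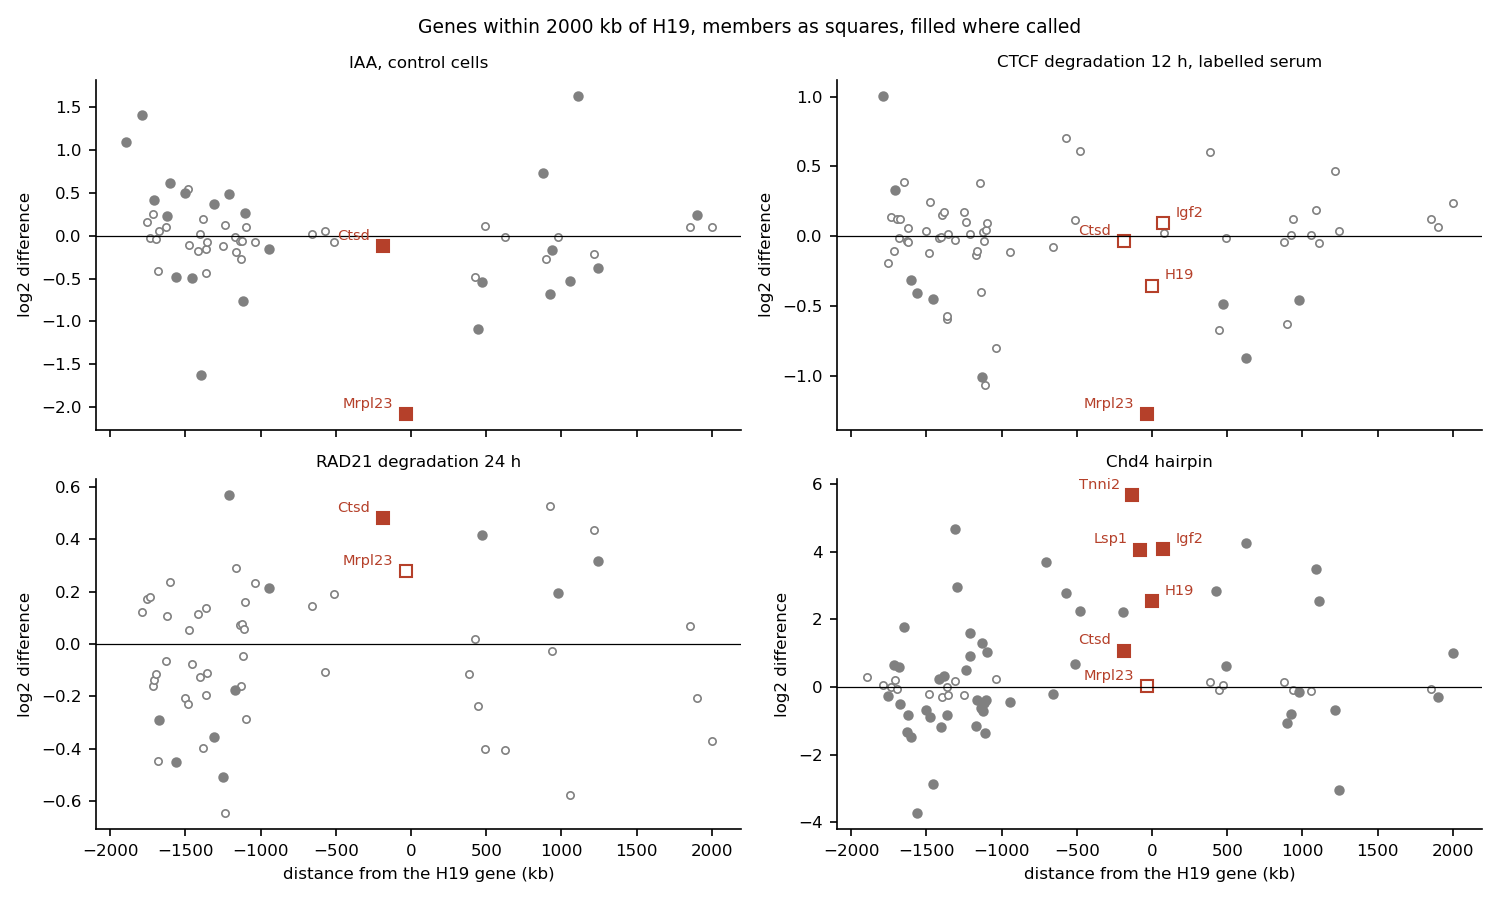
Log2 difference (vertical axes, each of its own range) of each tested gene within 2000000 bases of H19 against its distance from the H19 gene (horizontal axis, kb, negative towards Ctsd), for 4 comparisons. Squares are the members, circles other genes, and filled symbols were called by limma. Mrpl23 lies lowest with IAA in control cells at -2.08 and in serum at -1.27, and the height of Tnni2 depends on the value added before logs. In the Chd4 panel the members Igf2, Lsp1 and Tnni2 and, among the circles, Tspan32, Dusp8 and Gm49369 were tested only because they were high there.

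Genes that act with Igf2 were followed as a list of 19: ligands, receptors, binding proteins, adaptors and RNA-binding proteins. The list was chosen with earlier results of these data known, so its counts and p-values serve as a description. Of 14 tested with IAA in overexpression controls 3 were called higher and 3 lower, where 25.3% of all genes were called, and the median log2 difference was -0.03 against 0.00 over all genes. In serum 3 of 15 were higher and 3 lower, where 17% were called, and at 12 h of CTCF degradation 3 of 13 were higher and 2 lower, where 17.8% of all genes were called (22.5% at 24 h). Igfbp5, a secreted binding protein that modulates access of the growth factors to their receptor, rose in CTCF AID cells and in overexpression controls. It stood at 46.9 and 61.4 at 0 h, at 222 and 255 at 12 h and at 383 and 412 at 24 h in the CTCF degradation table (log2 differences 2.13 and 2.87, limma adjusted p 0.000452 and 0.000112). In overexpression controls it rose by 1.79 (limma adjusted p 3.65e-05). In serum it stood at 4.84 and 13.8 without and at 30.2 and 31.3 with IAA, and it was tested there only because of the treated libraries. Igfbp7, a related binding protein, fell in the CTCF degradation table from 52.3 and 68.8 to 12.9 and 20.4 at 12 h (log2 difference -1.82). At 24 h it stood at 2.29 and 2.30. Igfbp7 reached the mean of 10 needed for a test there only through the untreated libraries, so no test of it is given. It is counted among the 2 lower at 12 h all the same. It was called neither in serum (17.0 and 19.2 without, 16.7 and 24.2 with IAA) nor in overexpression controls (13.5 and 21.2 without, 8.31 and 10.1 with IAA).

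Igf2bp1, an RNA-binding protein that binds Igf2 mRNA, rose with IAA in overexpression controls from 8414 and 8694 to 14494 and 15599.7 (log2 difference 0.81, limma adjusted p 1.82e-07). With wild-type CTCF added the IAA effect was smaller (interaction -0.33, limma adjusted p 0.0137), and the interaction with mutated CTCF was not called. At 12 h of CTCF degradation Igf2bp1 rose by 0.38 (limma adjusted p 0.00167). In serum it moved the other way, from 10888 and 11197 without to 9544 and 9598 with IAA (log2 difference -0.21, limma adjusted p 0.00113). Degradation of RAD21 lowered Igfbp4 from 273 and 291 to 84.2 and 111 at 24 h (log2 difference -1.53, limma adjusted p 0.00341). It raised Igf2r, the receptor that clears the growth factor, by 0.48 (limma adjusted p 0.000397), and 1 of 14 tested was higher and 4 lower at 24 h, where 13.7% of all genes were called. With the Chd4 hairpin 3 of 15 were higher and 7 lower, where 67.4% of all genes were called, 33.5% higher and 33.8% lower. Igf2 itself is 1 of the 3 although it was tested only because it was high there. The lower ones included Igf2bp2 (3414 and 3429.9 to 901 and 912, log2 difference -1.92) and the adaptor Irs1 (83.9 and 99.1 to 31.3 and 33.8, log2 difference -1.46).

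Factors that act at the control region or on its methylation formed a list of 25. This list too was chosen with earlier results of these data known, so its counts and p-values serve as a description. In overexpression controls 8 of 24 tested rose with IAA and 3 fell, where 25.3% of all genes were called, and in serum 4 of 24 rose and 6 fell, where 17% were called. After 12 h in CTCF AID cells, 13 of 24 tested rose and 2 fell, where 17.8% of all genes were called, with a median log2 difference of 0.18 against 0.00 over all genes. Dppa3, which protects imprints in the early embryo, rose there from 148 and 158 to 415 and 434 (log2 difference 1.47, limma adjusted p 0.000218) and in overexpression controls from 363 and 376 to 938 and 951 (1.35, limma adjusted p 4.82e-06). With wild-type CTCF added the rise of Dppa3 was smaller (interaction -0.80, limma adjusted p 0.0175), and its interaction with mutated CTCF was not called. Zfp57, a zinc finger protein that keeps imprints methylated, rose at 12 h from 3487 and 3590 to 6284 and 6952 (log2 difference 0.90, limma adjusted p 0.000191) and in overexpression controls by 0.44 (limma adjusted p 1.29e-06). Its rise was smaller with wild-type CTCF (interaction -0.28, limma adjusted p 0.00368) and with mutated CTCF (-0.43, limma adjusted p 0.000123). Without IAA Zfp57 was already higher with mutated CTCF than in the control (0.39, limma adjusted p 2.66e-05). Neither Dppa3 nor Zfp57 was among the 10 factors called in serum.

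With the Chd4 hairpin, the comparison in which H19 rose, 7 of the 25 factors were higher and 13 lower, against 33.5% and 33.8% of all genes. Dnmt3l, the cofactor of de novo methylation, rose from 455 and 464 to 5828 and 5862 (log2 difference 3.67, limma adjusted p 1.07e-06). Ctcfl, the germline paralogue of CTCF, stood at 3.38 and 8.30 with the control and at 96.1 and 101 with the Chd4 hairpin, and is 1 of the 7 although it was tested only because it was high there. Uhrf1, which brings the maintenance methyltransferase to replicated DNA, fell from 11585 and 11696 to 4116 and 4178 (-1.49, limma adjusted p 1.87e-06). Methylation was not measured here.

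The genes whose levels most resembled those of Mrpl23 over the 12 overexpression libraries, by Pearson's r of log2 values among 10139 genes with a mean of at least 100, were Ubqln4 (r = 0.983, chromosome 3), Slc48a1 (0.983, chromosome 15) and Aldh5a1 (0.981, chromosome 13). The libraries share their treatments, so r mostly describes the split between libraries with and without IAA and carries no p-value. H19 and Igf2 are not listed in that table and no such genes were sought for them.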

How the data were processed

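Sequencing libraries were prepared from mRNA with a VAHTS kit, per the labels' protocols. The values are a signal: the authors' deposited normalised counts, in 5 tables. As each table had its own normalisation, levels were tested inside a table and never across tables. The submitters' processing notes name Trim Galore, Bowtie2, STAR, RSEM, DESeq2 and mm10 without roles or order. The values are not whole numbers, so no count test was run and read depth is not known. Of the columns, 0 had no sample. An incomplete row that ends the CTCF degradation file was dropped. Groups followed the titles.

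Genes averaging 10 or more in a table entered a linear model of log2(value + 1) holding all groups of that table (limma 3.58.1, R 4.3.3, eBayes with a mean trend). A gene was called where its Benjamini-Hochberg adjusted p, taken across the genes tested in that table, was below 0.05. The code was tested on simulated data. Alternatives were pseudocounts of 0.5 and 5, no filter or a mean of at least 100, trimmed-mean and quantile scaling, no mean trend, fits of the compared groups alone, a replicate block, the treatment label, each library left out, and a 2-fold minimum. Added after the values were seen were the sum with the pseudogene, the crossed block and the comparisons under IAA with the control. Positions are from GENCODE M21, joined by gene identifier. Named genes were the 8 members, listed genes within 500000 bases of H19, called members of each list by size of change, and the 3 genes most like Mrpl23. The members, lists and marker sets were chosen with earlier results of these data known.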

Additional observations from a re-analysis of the deposited data

How the results depend on the processing

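Over 533 values of single members under an alternative, 495 kept their direction and their side of the threshold, 22 lost a call, 2 gained one, 13 changed sign and 1 moved without a test. Mrpl23 stayed called lower with IAA under every other fit run in serum and with wild-type and mutated CTCF, and in control cells under all but grouping by treatment label. That grouping leaves no comparison of IAA with wild-type or with mutated CTCF, so it was not run there. A 2-fold minimum ended the Mrpl23 call with mutated CTCF. Sign changes were of differences that were not called or had no test. The Ctsd difference at 12 h in CTCF AID cells was -0.039 under quantile normalisation and -0.010 to 0.053 with single libraries left out, and that with IAA and mutated CTCF was -0.020 and -0.0070 to 0.020 in the same order. For Mrpl23, the RAD21 difference between 24 and 12 h was 0.16 with the pseudogene added and -0.23 to 0.14 with libraries left out, and that of wild-type CTCF against control without IAA was -0.20 by treatment label. With libraries left out Mrpl23 ranged from -0.052 to 0.34 between mutated and wild-type CTCF and from -0.014 to 0.085 with the Chd4 hairpin, and H19 in serum from -0.82 to 0.12.

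Counts of members moved too. With a mean of at least 100, those at least 2-fold different without a test numbered 0 at 12 h and 0 at 24 h of CTCF degradation, since Mrpl23 is below that mean there. The number called was then 1 with the Chd4 hairpin and 1 for the interaction with mutated CTCF. Without a mean trend it was 0 at 12 h and 0 at 24 h of RAD21 degradation, 1 with IAA in control cells, 0 for mutated CTCF against control without IAA and 1 for wild-type CTCF against control with IAA, and fits of the compared groups alone gave 1, 0 and 1 for the last 3. With a 2-fold minimum it was 0 and 0 for RAD21, 1 with IAA in control cells, 1 with wild-type and 0 with mutated CTCF, 0 for mutated CTCF against control and 1 for wild-type CTCF against control with IAA. Quantile normalisation gave 1 between 24 and 12 h of RAD21 degradation, and the treatment label gave 0 with IAA in control cells. With single libraries left out it was 1 to 2 with IAA in control cells, 0 for mutated CTCF against control, 1 to 2 for wild-type CTCF against control with IAA and 3 to 5 with the Chd4 hairpin, the low value without its second library, where Lsp1 was below the filter and Igf2 had an adjusted p of 0.067. Except where fewer genes or libraries entered, the cause was not tested.

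Whether replicate numbers pair the libraries was checked by the correlation of same-numbered deviations, with a threshold of 0.1 for r. The size of r was above it in serum (-0.160). In the overexpression table it was 0.152 between wild-type and mutated CTCF without IAA and -0.126 between them with IAA. In the CTCF degradation, RAD21 and hairpin tables r lay between -0.0232 and 0.0599. A pairing is therefore neither shown nor excluded. With the replicate number as a block, no count of members called changed, and the adjusted p of Mrpl23 in serum was 0.000162. In serum the block gave 2812 calls over all genes against 2462 without it, and crossed numbers gave 2174. Few libraries and low levels limit H19, Igf2, Lsp1 and Tnni2 most.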
